A study of Homo sapiens with 6 samples.

Results

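The 10 genes described here write, copy or remove DNA methylation or form the core of Polycomb repressive complex 2 (PRC2). They were chosen by name, as DNMT1, UHRF1, HELLS, DNMT3A, DNMT3B, TET2, EZH2, EZH1, SUZ12 and EED, out of 28395 gene IDs in each count table, and all 10 were among the 16381 genes that passed the filter on low counts. RNA was sequenced from A375, an established human melanoma line with an activating BRAF mutation, after 72 h. There were 2 libraries in each of 3 groups: 0.01% DMSO (vehicle), 1 µM palbociclib (PD991), which blocks the cell cycle kinases CDK4 and CDK6, and 500 nM GSK3326595 (CTX), an inhibitor of the arginine methyltransferase PRMT5. All cells were grown in supplemented RPMI medium, and total RNA was depleted of ribosomal RNA before library preparation. The labels do not say whether replicates were separate cultures, so each p-value reflects only how far these libraries spread, and that spread may be technical.

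DNA methylation at CpG sites is copied after replication. UHRF1 recognises the half-methylated site, DNMT1 methylates the new strand, and HELLS, a chromatin remodeller, opens nucleosomal DNA to the process. DNMT3A and DNMT3B place methyl groups on sites that had none, and the TET enzymes oxidise methylcytosine towards its removal. PRC2 methylates lysine 27 of histone H3, a mark of silenced developmental genes. EZH2 or its paralogue EZH1 is the catalytic subunit, and SUZ12 and EED are the scaffold and the reader of the mark. In many tissues EZH2 is high in dividing cells, while EZH1 is also present in resting ones.

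Library totals lay between 16589153 and 20842099 counts. The labelled cell type was checked on marker genes. SOX10 was between 122 and 237 CPM and MITF between 57.4 and 87.4 CPM over the 6 libraries (counts per 1000000 of the TMM-scaled library), while PMEL and MLANA were at 2.45 CPM or less and TYR at 0.0583 CPM or less. None of 4 blood markers reached 1 CPM, and 2 of 4 epithelial and 3 of 5 fibroblast or endothelial markers did. The lineage regulators SOX10 and MITF were thus present and the pigment genes TYR, PMEL and MLANA low or at 0. The summed epithelial markers, mostly KRT14, were 2.40 to 2.499 CPM in DMSO, 7.77 to 9.75 with palbociclib and 3.21 to 4.08 with GSK3326595, and the fibroblast and endothelial ones, mostly COL1A1, were 17.96 to 19.5, 10.1 to 13.9 and 29.1 to 33.8 CPM. Their part in the results was not tested.

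With palbociclib 7 of the 10 genes fell against DMSO and 3 were not called. Of all 16381 genes tested, 39.5% were called in that comparison, 20.2% as lower. The fall was at least 2-fold for 4 members, as for 4.66% of all genes. The members that fell were DNMT1, UHRF1, HELLS, DNMT3B, EZH2, SUZ12 and EED, and the median log2 fold change was -0.84 over the 10 members against -0.02 over all genes tested. With GSK3326595 6 of the 10 fell, the same set without EED, where 18.8% of all genes were called and 10.2% were lower. It was at least 2-fold for 1 member and for 1.6% of all genes. The median was -0.48 over the members and 0.00 over all genes. Both comparisons use the same 2 DMSO libraries. The members and the lists below were chosen with earlier results of these data known. Their shares beside those of all genes are therefore descriptive and no independent test. Both palbociclib libraries lay below both DMSO libraries for 8 members (37.4% of all genes tested). Both GSK3326595 libraries lay below for 7 members (29.7%) and above for 1, DNMT3A (27.6%). In bulk RNA, fewer cells with a transcript and less of it per cell cannot be told apart. CPM is also relative to the rest of the library, so the absolute amount of a transcript was not measured.

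**Figure D1:**
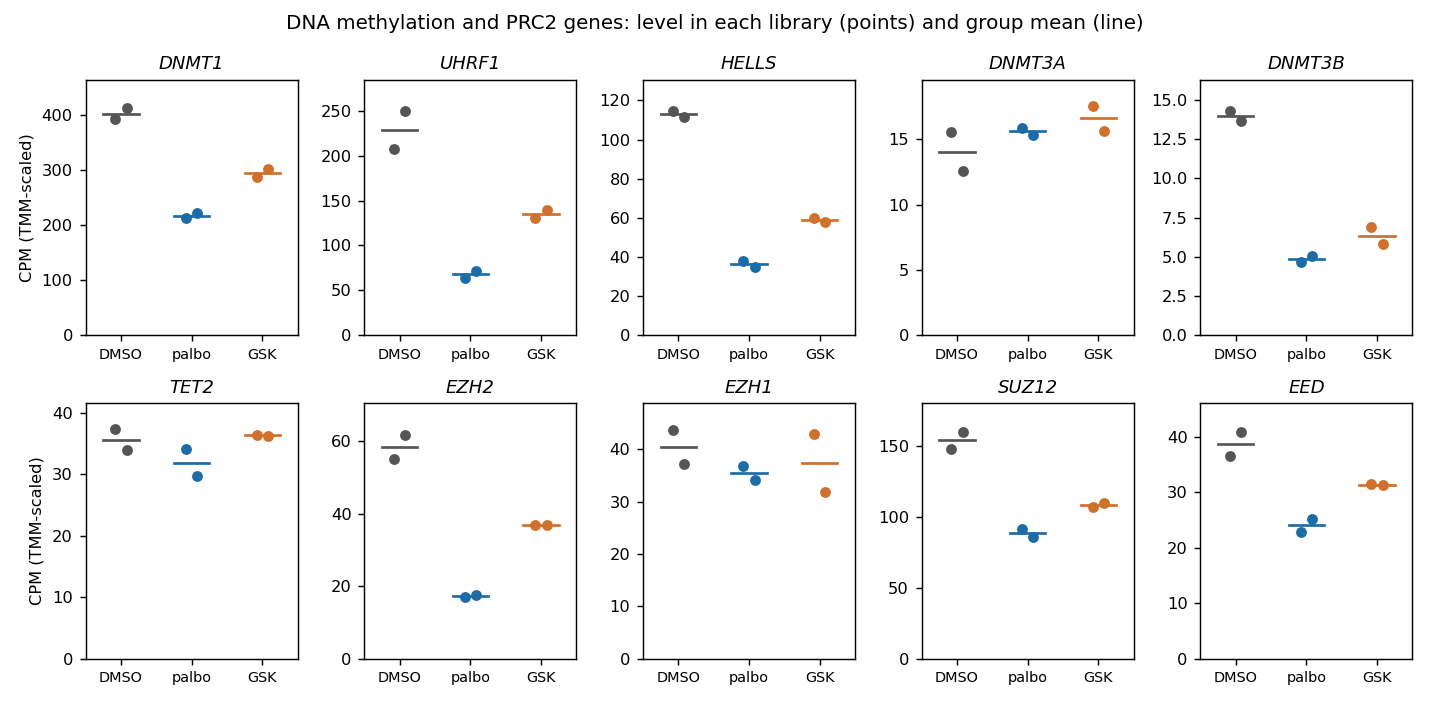
Level of each of the 10 genes in every library, in CPM after TMM scaling on linear axes from 0, with points for the 2 libraries of a group (DMSO, palbo for palbociclib, GSK for GSK3326595) and a line at their mean. For DNMT1, UHRF1, HELLS, DNMT3B, EZH2, SUZ12 and EED the palbociclib points lie below the GSK3326595 points, which lie below the DMSO points. The DNMT3A, TET2 and EZH1 points are at similar heights in the 3 groups.

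The 3 maintenance methylation genes fell with both inhibitors. DNMT1 (Gene ID 1786; chromosome 19, 10133346 to 10194953, GRCh38), the maintenance methyltransferase, was at 392 and 412 CPM in the DMSO libraries, 212 and 222 CPM with palbociclib and 288 and 301 CPM with GSK3326595. The 3 groups did not overlap, and the GSK3326595 libraries lay between the others. The log2 fold change was -0.89 ± 0.0866 with palbociclib (SE, edgeR adjusted p = 9.94e-06) and -0.45 ± 0.086 with GSK3326595 (edgeR adjusted p = 0.00404). UHRF1 (Gene ID 29128; chromosome 19, 4903080 to 4962154), which reads half-methylated DNA, was at 208 and 249.6 CPM in DMSO, 64.0 and 71.6 CPM with palbociclib and 130.1 and 139 CPM with GSK3326595. Again the groups did not overlap. It fell to 29.6% of the DMSO level with palbociclib, or -1.75 ± 0.105 in log2 terms (SE, edgeR adjusted p = 2.6e-07), and to 58.8% with GSK3326595 (-0.77 ± 0.102, edgeR adjusted p = 0.000395).

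HELLS (Gene ID 3070; chromosome 10, 94545788 to 94613905), the remodeller, was at 115 and 112 CPM in DMSO, 37.7 and 34.8 CPM with palbociclib and 59.8 and 57.6 CPM with GSK3326595. Its replicates lay closer together than those of UHRF1 in DMSO, and the groups were separate. The log2 fold change was -1.64 ± 0.0874 with palbociclib (SE, edgeR adjusted p = 1.49e-07) and -0.95 ± 0.0853 with GSK3326595 (edgeR adjusted p = 3.98e-05). In the GENCODE v29 annotation DNMT1 overlaps S1PR2 and HELLS overlaps TBC1D12, both on the same strand. S1PR2 had at most 446 counts in a library where DNMT1 had at least 4183, and TBC1D12 at most 388 counts where HELLS had at least 724.

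The de novo enzymes differed from each other. DNMT3B (Gene ID 1789; chromosome 20, 32762385 to 32809356) was at 14.3 and 13.6 CPM in DMSO, 4.67 and 5.04 CPM with palbociclib and 6.88 and 5.82 CPM with GSK3326595. Both treated groups lay below DMSO and did not overlap each other, on 92 to 262 counts per library. It fell to 34.8% of the DMSO level with palbociclib (log2 fold change -1.52 ± 0.165, SE, edgeR adjusted p = 2.29e-05) and to 45.4% with GSK3326595 (-1.14 ± 0.163, edgeR adjusted p = 0.00064). That was the largest change of a member with GSK3326595, and the single one past 2-fold there. DNMT3A (Gene ID 1788; chromosome 2, 25227874 to 25342590) was at 15.6 and 12.5 CPM in DMSO, 15.9 and 15.3 CPM with palbociclib and 17.5 and 15.7 CPM with GSK3326595. The DMSO libraries spanned most of the range, and the palbociclib libraries overlapped them. DNMT3A was not called with palbociclib (log2 fold change 0.15, 95% confidence interval -0.15 to 0.45, edgeR adjusted p = 0.404) or with GSK3326595 (0.24, interval -0.06 to 0.55, edgeR adjusted p = 0.252).

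The ratio of DNMT3B to DNMT3A counts within a library needs no scaling between libraries. It was 0.921 and 1.09 in DMSO, 0.294 and 0.329 with palbociclib and 0.392 and 0.372 with GSK3326595. The treated libraries were all below the DMSO libraries, with means of 1.00 ± 0.117, 0.312 ± 0.0249 and 0.382 ± 0.0143 (SD, n = 2). No test was made of this ratio. TET2 (Gene ID 54790; chromosome 4, 105145875 to 105279803), the demethylating enzyme of the set, was at 37.4 and 33.9 CPM in DMSO, 34.1 and 29.7 CPM with palbociclib and 36.4 and 36.3 CPM with GSK3326595. It was not called with palbociclib (log2 fold change -0.16, 95% confidence interval -0.39 to 0.07, edgeR adjusted p = 0.251) or GSK3326595 (0.03, interval -0.20 to 0.26, edgeR adjusted p = 0.883). The other TET genes were named after their values were seen. With palbociclib TET1 fell from 22.3 ± 1.24 to 13.1 ± 1.23 CPM (edgeR adjusted p = 0.000583, SD, n = 2). TET3 was not called there (-0.08 ± 0.084, edgeR adjusted p = 0.474). With GSK3326595 neither TET1 (-0.06 ± 0.124, edgeR adjusted p = 0.778) nor TET3 (0.21 ± 0.084, edgeR adjusted p = 0.111) was called.

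Among PRC2 genes the catalytic subunit EZH2 had the largest change. EZH2 (Gene ID 2146; chromosome 7, 148807383 to 148884291) was at 55.2 and 61.8 CPM in DMSO, 17.1 and 17.5 CPM with palbociclib and 36.9 CPM in each GSK3326595 library. The 3 groups were separate. It fell to 29.6% of the DMSO level with palbociclib, or -1.76 ± 0.104 in log2 terms (SE, edgeR adjusted p = 2.49e-07), and to 63.0% with GSK3326595 (-0.67 ± 0.0989, edgeR adjusted p = 0.000803). EZH1 (Gene ID 2145; chromosome 17, 42700275 to 42745040), the paralogue, was at 43.7 and 37.3 CPM in DMSO, 36.9 and 34.2 CPM with palbociclib and 43.0 and 31.9 CPM with GSK3326595. The GSK3326595 libraries overlapped the DMSO libraries, and both palbociclib libraries lay just under them. EZH1 was not called with palbociclib (log2 fold change -0.19, 95% confidence interval -0.49 to 0.11, edgeR adjusted p = 0.294) or with GSK3326595 (-0.11, interval -0.41 to 0.19, edgeR adjusted p = 0.614).

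The EZH2 to EZH1 count ratio was 1.26 and 1.66 in DMSO, 0.464 and 0.512 with palbociclib and 0.859 and 1.16 with GSK3326595. EZH2 had more counts than EZH1 in both DMSO libraries and fewer in both palbociclib libraries, and the GSK3326595 libraries fell on either side of equal counts. Per exon length the ratios were 1.91 and 2.52 in DMSO, 0.704 and 0.776 with palbociclib and 1.30 and 1.75 with GSK3326595, so that on this scale EZH2 stayed above EZH1 in both GSK3326595 libraries. This ratio was not tested either.

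**Figure D2:**
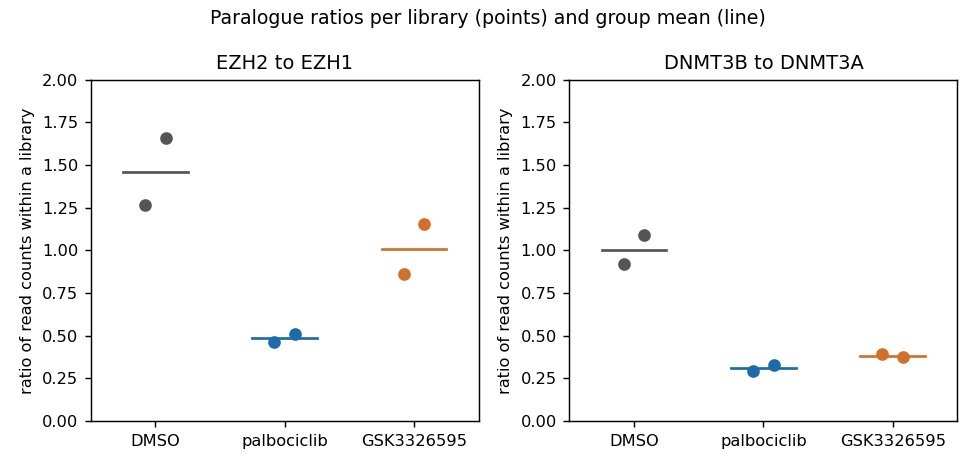
Ratio of read counts of EZH2 to EZH1 and of DNMT3B to DNMT3A within each library (points, 2 per group) with the group mean as a line, on linear axes from 0. Both ratios are lowest in the palbociclib libraries, at 0.464 and 0.512 for EZH2 to EZH1 and at 0.294 and 0.329 for DNMT3B to DNMT3A.

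The non-catalytic core subunits had smaller fold changes than EZH2, a difference that was not tested. SUZ12 (Gene ID 23512; chromosome 17, 31937007 to 32001038), the scaffold, was at 148 and 159.9 CPM in DMSO, 91.4 and 85.8 CPM with palbociclib and 107 and 110.1 CPM with GSK3326595. The groups were separate. The log2 fold change was -0.80 ± 0.0827 with palbociclib (SE, edgeR adjusted p = 1.66e-05) and -0.50 ± 0.0824 with GSK3326595 (edgeR adjusted p = 0.0015). The pseudogene SUZ12P1 had 249 and 223 counts in DMSO, 132 and 128 with palbociclib and 175 and 126 with GSK3326595, where SUZ12 had between 1787 and 3071. How the counting split reads between them is not given in the sources used here, so how much of the SUZ12 counts is uncertain is not known.

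EED (Gene ID 8726; chromosome 11, 86244753 to 86287615), which binds the mark, was at 36.6 and 40.9 CPM in DMSO, 22.9 and 25.2 CPM with palbociclib and 31.5 and 31.2 CPM with GSK3326595. It fell with palbociclib (log2 fold change -0.69 ± 0.106, SE, edgeR adjusted p = 0.000328). Both GSK3326595 libraries lay below both DMSO libraries, but the difference was not called (-0.31 ± 0.105, edgeR adjusted p = 0.0637). Of 13 alternatives, only an edgeR fit blocked on replicate number called it lower (adjusted p = 0.00714). That fit also raised the number of all genes called from 3081 to 5769.

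**Figure D3:**
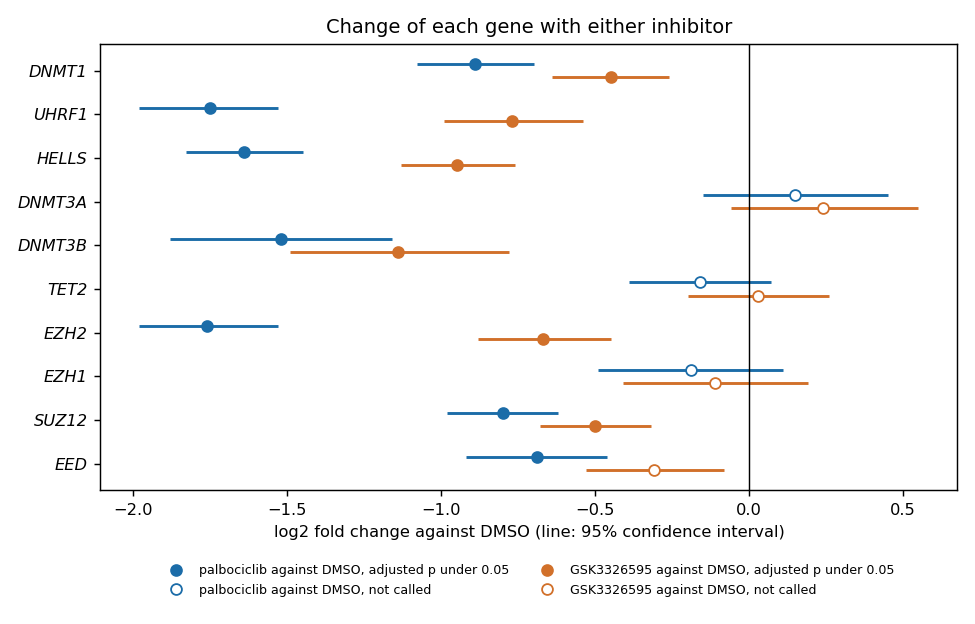
Log2 fold change of each gene against DMSO with palbociclib (blue) and GSK3326595 (orange), with the 95% confidence interval from the quasi-likelihood fit as a line, filled where the adjusted p was under 0.05 and open where the gene was not called. EZH2 and UHRF1 have the lowest palbociclib values, at -1.76 and -1.75, and the intervals of DNMT3A, TET2 and EZH1 cross 0 with both inhibitors.

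The inhibitors were also compared with each other, in libraries treated for the same 72 h at the single dose of each. In this contrast 6 of the 10 members were lower with palbociclib than with GSK3326595, where 18.2% of all genes tested were called lower. The palbociclib libraries were both below the GSK3326595 libraries for 8 members (35.7% of all genes). EZH2 with palbociclib was at 46.9% of its GSK3326595 level (log2 difference -1.09 ± 0.105, SE, edgeR adjusted p = 2.32e-05), the largest difference of a member and the single one past 2-fold (2.33% of all genes). UHRF1 was at 50.4% (-0.99 ± 0.104, edgeR adjusted p = 4.18e-05). HELLS differed by -0.70 ± 0.0881 (edgeR adjusted p = 0.000128) and DNMT1 by -0.44 ± 0.0864 (edgeR adjusted p = 0.0022).

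The remaining differences between the inhibitors were small. EED differed by -0.38 ± 0.107 (edgeR adjusted p = 0.0158), and the call was lost without palbociclib replicate 1 (edgeR adjusted p = 0.142). SUZ12 differed by -0.29 ± 0.0831 (edgeR adjusted p = 0.0169), and the call was lost without palbociclib replicate 1 (0.0691), palbociclib replicate 2 (0.174) or GSK3326595 replicate 2 (0.06). DNMT3B was not called (log2 difference -0.39, 95% confidence interval -0.77 to 0.00, edgeR adjusted p = 0.111), although both palbociclib libraries were below both GSK3326595 libraries. DNMT3A (interval -0.39 to 0.21), TET2 (-0.42 to 0.04) and EZH1 (-0.38 to 0.22) were not called either.

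Levels were set against each other per kilobase of the GENCODE v29 exon union, which covers all basic isoforms and may differ from the exons counted. In DMSO the order of the group means was DNMT1 at 73.7, UHRF1 at 44.5, SUZ12 at 34.3, HELLS at 33.9, EZH2 at 19.1, EED at 10.7, EZH1 at 8.72, DNMT3B at 3.02, TET2 at 2.27 and DNMT3A at 1.31 CPM per kilobase. SUZ12 and HELLS overlapped between libraries, and the other neighbours did not. With palbociclib SUZ12, at 19.7 CPM per kilobase, stood above UHRF1 at 13.2 and HELLS at 10.9, and EZH2, at 5.65, stood below EZH1 at 7.65 and EED at 6.62. EZH2 thus went from the fifth place to the seventh. DNMT3B went from the eighth place in DMSO to the last, at 1.05 CPM per kilobase with palbociclib and 1.37 with GSK3326595, where its libraries overlapped those of DNMT3A at 1.55. EED at 8.64 and EZH1 at 8.06 CPM per kilobase also overlapped with GSK3326595.

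Promoter sequences were read because 7 of the members fell together. RefSeq (GRCh38.p14) lists 19 start-site windows for the 10 genes, each from 250 bases before to 50 bases after a start. The E2F core motifs TTCCCGC and TTGGCGC were searched on both strands. At least 1 window of UHRF1, HELLS, EZH2 and SUZ12 held a match, 4 of 10 members, against 10.96% of the 27305 genes with a window. Each of these 4 genes fell with both inhibitors. The windows of DNMT1, DNMT3B and EED held no match to these letters, nor did those of DNMT3A, TET2 and EZH1. DNMT1 and DNMT3B also fell with both inhibitors, while EED was called against DMSO only with palbociclib. The window listed for DNMT3B (32779602 to 32779901 on chromosome 20) lies inside the gene, which starts at 32762385. All 3 windows listed for UHRF1 (between 4909251 and 4910416 on chromosome 19) also lie inside the gene, which starts at 4903080. The sequence at either gene start was not searched. Genes differ in their number of windows, and UHRF1 and EZH2 had a match in 1 of 3 and 1 of 2. By window, 4 of 19 held a match, against 9.23% of all 35116 windows. Both shares include genes that were not tested for expression and were not matched for base content. The matched stretches are given 5′ to 3′ on the gene's strand, with the E2F motif or its reverse complement in capitals.
UHRF1 (chr19:4909367-4909500, plus strand): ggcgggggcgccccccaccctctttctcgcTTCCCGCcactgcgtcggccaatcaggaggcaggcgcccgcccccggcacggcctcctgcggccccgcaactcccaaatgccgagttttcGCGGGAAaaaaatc
HELLS (chr10:94545682-94545787, plus strand): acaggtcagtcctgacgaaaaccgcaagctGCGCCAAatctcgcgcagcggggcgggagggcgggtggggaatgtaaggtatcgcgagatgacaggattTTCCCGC
EZH2 (chr7:148884283-148884349, minus strand): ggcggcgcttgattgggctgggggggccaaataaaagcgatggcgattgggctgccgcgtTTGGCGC
SUZ12 (chr17:31936789-31936855, plus strand): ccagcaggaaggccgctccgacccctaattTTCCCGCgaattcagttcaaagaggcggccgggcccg
UHRF1 and HELLS each held 2 matches, the nearer one starting 14 bases before the listed start in UHRF1 and 7 bases before it in HELLS. The EZH2 match began at base 3 of the transcript, and that of SUZ12 lay 188 bases upstream.

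Another pair of elements found in promoters of cell cycle genes was counted in the same windows. The CCAAT box (CCAAT on either strand) was present in 6 members, UHRF1, HELLS, DNMT3B, EZH2, SUZ12 and EED, against 39.7% of all genes with a window. EZH2 had 4 such matches in the window with its E2F match, 2 of them inside the stretch printed above, and the UHRF1 stretch holds 1. The CHR motifs TTTGAA and TTCGAA were present in 3 members, DNMT3A, TET2 and SUZ12, against 19.5% of all genes with a window. Of these 3 genes only SUZ12 was called in either inhibitor comparison. These matches describe the sequence and do not show that a factor binds.

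The genes with the profile nearest to a member over the 6 libraries were found by Euclidean distance between centred log2 CPM values, among 9958 genes at a mean of at least 10 CPM. Nearest to DNMT1 were DCLRE1B (distance 0.0718), UNG (0.101) and RPA3 (0.102). DCLRE1B had log2 fold changes of -0.90 with palbociclib and -0.50 with GSK3326595. Nearest to UHRF1 were MCM10 (0.0886), MCM6 (0.127) and PCLAF (0.139), and the nearest other member was EZH2 (0.176). Nearest to EZH2 were DEK (0.0752), which went from 186 CPM in DMSO to 57.2 CPM with palbociclib and 117 CPM with GSK3326595, TMPO (0.118) and RAD51AP1 (0.144).

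Replication genes were taken as a reference list. All 6 MCM helicase genes MCM2 to MCM7, whose products unwind DNA at the replication fork, fell with both inhibitors (20.2% and 10.2% of all genes), with medians of -1.21 with palbociclib and -0.74 with GSK3326595. MCM6 fell most with palbociclib, from 137 ± 12.6 to 43.1 ± 4.87 CPM (SD, n = 2), and MCM7 most with GSK3326595, from 434 ± 30.3 to 245 ± 12.005 CPM. MCM2 and MCM7 were at -1.18 ± 0.0853 and -1.40 ± 0.0919 with palbociclib, and MCM3 and MCM5 at -0.65 ± 0.0823 and -0.74 ± 0.0853 with GSK3326595 (log2 fold change, SE). UHRF1, HELLS, DNMT3B and EZH2 lay below the MCM median with palbociclib, and DNMT1, SUZ12 and EED above it. With GSK3326595 HELLS and DNMT3B lay below the MCM median and UHRF1, at -0.77, just below it. EZH2, at -0.67, lay above it there, as did DNMT1, SUZ12 and EED. Whether the members' values moved with the share of replicating cells was not tested.

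The list of partners and readers of DNA methylation had 22 tested genes. With palbociclib 10 fell, 3 rose and 9 were not called, with a median log2 fold change of -0.20, where 20.2% of all genes tested were called lower and 19.3% higher. CDCA7, which recruits HELLS to chromatin, fell from 42.0 ± 2.18 to 11.8 ± 1.23 CPM (SD, n = 2), and its paralogue CDCA7L from 97.1 ± 3.91 to 42.8 ± 2.46 CPM. PCNA, the sliding clamp that also binds DNMT1, fell by 1.43 on the log2 scale. ZBTB4, a zinc finger protein that binds methylated DNA, rose from 88.3 ± 3.51 to 139.5 ± 2.25 CPM. With GSK3326595 6 of 22 fell, 1 rose and 15 were not called (median -0.05), against 10.2% lower and 8.58% higher over all genes. LIG1, the replicative DNA ligase, fell from 79.1 ± 3.55 to 40.7 ± 6.98 CPM and CDCA7 to 23.5 ± 3.72 CPM. CDCA7L fell by 0.42 on the log2 scale (edgeR adjusted p = 0.0053), which was not called once DMSO replicate 2 was left out (0.0517). MBD1, a reader of methylated CpG, was higher (0.36 ± 0.0847, edgeR adjusted p = 0.0126), though not once either DMSO replicate 1 (0.0846) or DMSO replicate 2 (0.0847) was left out. The count called with palbociclib went from 13 to 8 without DMSO replicate 2. With GSK3326595 it went from 7 to 4 without DMSO replicate 1 and to 3 without DMSO replicate 2.

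Accessory subunits of PRC2 steer the core complex to chromatin. The list of them used here also held RBBP4 and RBBP7, which are often counted with the core. With palbociclib 7 of 10 tested genes fell (20.2% of all genes), 3 were not called and the median was -0.58. PHF19, a reader of methylated lysine 36 of histone H3, fell from 144 ± 0.919 to 52.4 ± 2.44 CPM (edgeR adjusted p = 2.24e-07, SD, n = 2). RBBP4, a histone-binding subunit, fell by 0.77 and LCORL, a PALI-type subunit, by 1.15 on the log2 scale. With GSK3326595 5 of 10 fell (10.2% of all genes) and 5 were not called (median -0.23). PHF19 was at 102 ± 5.85 CPM, and LCORL (-0.60 ± 0.121) and RBBP7 (-0.45 ± 0.0875) were also lower, whereas RBBP4 was at 169 CPM against 176 CPM in DMSO (edgeR adjusted p = 0.683). The RBBP7 call was lost without DMSO replicate 2 (edgeR adjusted p = 0.0532). The 5 GSK3326595 calls became 3 without DMSO replicate 2 or GSK3326595 replicate 2.

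PRC1, the Polycomb complex that ubiquitinates histone H2A, had 23 tested genes. With palbociclib 10 fell, 2 rose, 11 were not called and the median was -0.08, where 20.2% of all genes were lower and 19.3% higher. SCMH1 fell from 47.0 ± 2.33 to 21.0 ± 1.38 CPM (SD, n = 2), the chromodomain gene CBX2 from 27.4 ± 1.03 to 11.01 ± 2.499 CPM and PHC1 by 0.83 on the log2 scale. BCORL1 rose (0.52 ± 0.13, edgeR adjusted p = 0.00734), a call lost without palbociclib replicate 2 (0.0995). Without that library the 12 calls became 6. With GSK3326595 3 fell, 1 rose and 19 were not called (median -0.06), against 10.2% lower and 8.58% higher over all genes. The genes named by the rule were CBX2 (-0.71 ± 0.147) and PCGF3 (-0.44 ± 0.09), which were lower, and PCGF1, which was higher (0.54 ± 0.102, log2 fold change and SE). PCGF1 and PCGF3 are alternative Polycomb ring finger subunits.

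The list of genes that oppose Polycomb marks was short. With palbociclib KDM6B, a histone H3 lysine 27 demethylase, rose from 51.9 ± 2.00 to 85.7 ± 9.09 CPM (edgeR adjusted p = 0.000108, SD, n = 2). Its relative KDM6A was lower (-0.44 ± 0.105, edgeR adjusted p = 0.00571), though not once DMSO replicate 2 (0.0512) or palbociclib replicate 1 (0.0918) was left out. ASXL1, a cofactor of the H2A deubiquitinase BAP1, was lower (-0.26 ± 0.087, edgeR adjusted p = 0.0311). It was not called with library totals as the scaling (0.053), with DESeq2 (0.0571) and without either DMSO library (0.194 and 0.0585) or either palbociclib library (0.168 and 0.148). The 3 genes called of 5 tested (39.5% of all genes) became 1 without DMSO replicate 2 or palbociclib replicate 1. With GSK3326595 BAP1 was called higher (0.25 ± 0.0766, edgeR adjusted p = 0.0406), a call lost without any 1 of the 6 libraries (0.0926 to 0.237), with only the 2 groups in the fit (0.0886), with DESeq2 (0.0658) and without a filter (0.0725).

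**Figure D4:**
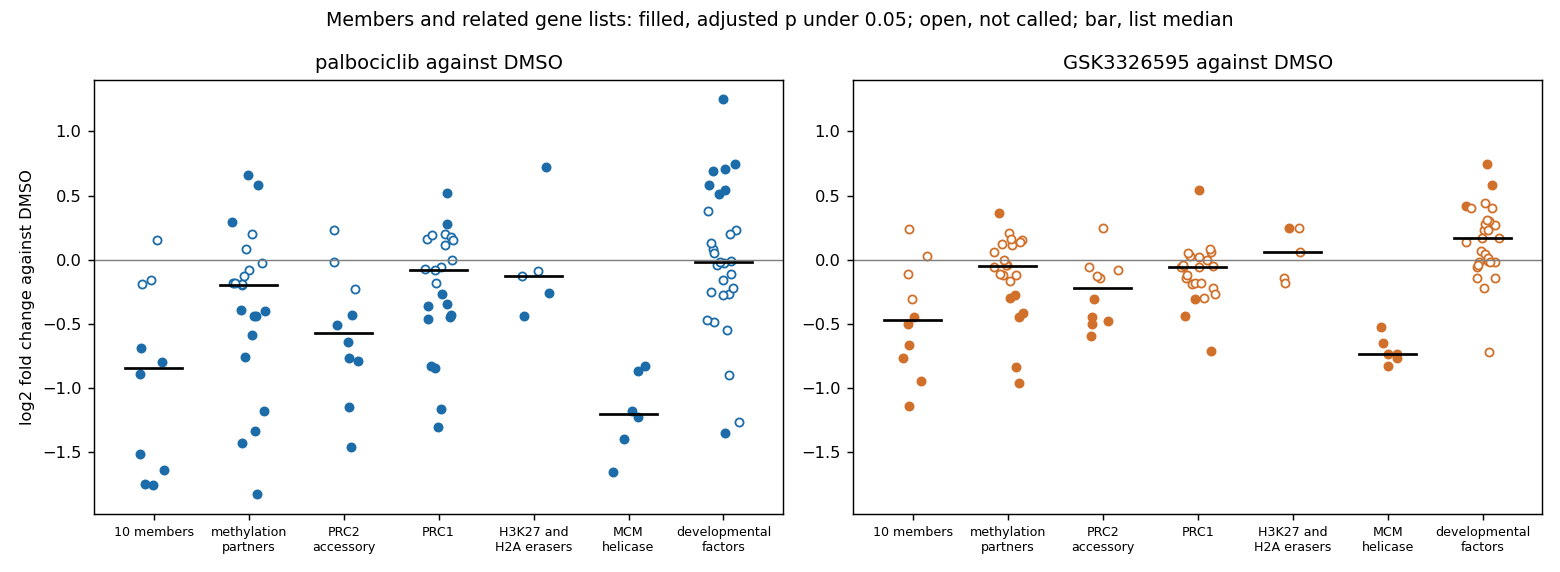
Log2 fold changes against DMSO of the 10 members and of 6 related gene lists with palbociclib (left) and GSK3326595 (right). Each point is a tested gene, filled where the adjusted p was under 0.05 and open otherwise, and the bar is the list median. The MCM helicase genes have the lowest medians, at -1.21 and -0.74, followed by the 10 members at -0.84 and -0.48.

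Genes that these systems are known to silence in other cells were examined next. Whether they were silenced by them in A375 was not measured. Of 12 germline genes silenced by promoter methylation in somatic cells, 9 did not pass the filter, with group means of at most 0.222 CPM. The other 3, SYCP3, STK31 and SOHLH2, were not called with either inhibitor in edgeR. None had an unadjusted p under 0.05 with palbociclib, and 1 was lower at that level with GSK3326595. DESeq2 called 0 of them in either comparison. Of 36 developmental genes held by Polycomb in many cell types, 29 were tested. With palbociclib 7 rose, 1 fell, 21 were not called and the median was -0.02, where 19.3% of all genes tested were called higher and 20.2% lower. TBX3 rose from 63.5 ± 3.49 to 102 ± 3.93 CPM (SD, n = 2), HOXC13 from 11.8 ± 0.726 to 19.8 ± 1.595 CPM and MSX2 from 5.68 ± 1.17 to 13.5 ± 2.82 CPM. These encode transcription factors. HOXD10 was called lower (edgeR adjusted p = 0.0452), from 0.703 CPM with DMSO to 0.272 CPM, a call lost with DESeq2 (0.213), without a filter (0.0717) and without any 1 of the 6 libraries (0.0586 to 0.233). The 8 calls became 5 without palbociclib replicate 2.

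With GSK3326595 3 of the 29 developmental genes rose, 26 were not called and the median was 0.17, while 8.58% of all genes tested were called higher. TBX3 (0.42 ± 0.0849, edgeR adjusted p = 0.00566), HOXC13 (0.58 ± 0.137, edgeR adjusted p = 0.0127) and MSX2 (0.75 ± 0.237, edgeR adjusted p = 0.0463) were those called. The TBX3 call was lost without DMSO replicate 1 (0.0834), and that of HOXC13 without DMSO replicate 2 (0.078) or GSK3326595 replicate 2 (0.0779). The MSX2 call was lost without DMSO replicate 1 (0.242) or GSK3326595 replicate 2 (0.288), with only the 2 groups in the fit (0.0556) and with library totals as the scaling (0.0552). The 3 calls became 1 without DMSO replicate 1 or GSK3326595 replicate 2 and 6 without GSK3326595 replicate 1. With palbociclib 19.3% of all genes tested were called higher, beside the 7 of 29 above. DNA methylation and histone marks were not measured here.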

How the data were processed

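The authors deposited raw read counts per gene for each of the 6 libraries, indexed by NCBI Gene ID and not normalised, per the file headers and values. The submitters' processing notes name build hg38, HISAT2, featureCounts 1.6.2, cutadapt 1.7, CASAVA 1.8.2 and limma. How strand, multimapped reads and the annotation were set is not given in the sources used here. Symbols came from RefSeq (GRCh38.p14), which matched 27745 of 28395 IDs.

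The members and lists were chosen with earlier results of these data known. Genes were kept by filterByExpr (minimum count 10), scaled by TMM and fitted over all 6 libraries in edgeR 4.0.16 (R 4.3.3) with 1 coefficient per group. Quasi-likelihood F tests were two-sided, with Benjamini-Hochberg adjustment over the 16381 genes kept, with calls made below 0.05. CPM is the count per 1000000 of the TMM-scaled library. Each SE was taken as the size of the log2 change over the root of its F value. The fit left 3 residual degrees of freedom. Tests and intervals of the members used 12.1, because edgeR also draws on the spread of other genes. Groups came from the sample titles. Alternatives were DESeq2 1.42.0, other scalings and filters, fewer groups, a replicate block and leaving out each library. All 10 members are named. In each list, the 3 called genes with the smallest p and the called gene with the smallest p in the less frequent direction are named for each inhibitor. For DNMT1, UHRF1 and EZH2, the 3 genes with the nearest profiles are named. Library totals ranged from 16589153 to 20842099 counts.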

Additional observations from a re-analysis of the deposited data

How the results depend on the processing

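The 7 members called lower with palbociclib and the 6 called lower with GSK3326595 remained called in all 13 alternatives for each comparison. EED was also called with GSK3326595 under the replicate block, which made 7. Leaving out 1 library gave 4 to 6 members called between the inhibitors. Over the 30 member values and their alternatives 381 kept direction and call, 4 lost a call and 1 gained one. The 4 that changed sign were never called: with GSK3326595 TET2 at -0.04 without DMSO replicate 2 (-0.04 to 0.07 over the left-out libraries) and EZH1 at 0.08 without GSK3326595 replicate 2 (-0.34 to 0.08), and between the inhibitors DNMT3A at 0.01 (-0.17 to 0.01) and EZH1 at 0.16 (-0.27 to 0.16) without GSK3326595 replicate 1. The cause was not tested.

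Leaving out 1 library gave 4007 to 7259 genes called with palbociclib (6470 with all), 1765 to 3230 with GSK3326595 (3081) and 3312 to 5542 between the inhibitors (5707). The counts moved by over 1.5 times without palbociclib replicate 1 (4216) or 2 (4007) for palbociclib, without DMSO replicate 1 (1765) or 2 (1776) for GSK3326595, and without palbociclib replicate 1 (3312) or 2 (3394) between the inhibitors. The replicate block raised the GSK3326595 count to 5769. Replicate 1 minus replicate 2 correlated between groups at 0.14 to 0.341 over genes, but with 2 replicates the numbers cannot be shown to pair the samples.

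The lists were put through the same alternatives after seeing the data. The number of all genes called, given above, moved under these alternatives too. Changes in a list count are therefore not particular to that list. Leaving out 1 library gave 8 to 13 methylation partners, 6 to 12 PRC1 genes, 1 to 3 opposing genes and 5 to 8 developmental genes called with palbociclib. With GSK3326595 it gave 3 to 6 methylation partners, 3 to 5 PRC2 accessory genes, 0 opposing genes and 1 to 6 developmental genes. The opposing genes called with GSK3326595 were 0 with only the 2 groups, with DESeq2 and without a filter. Under the replicate block they were 3, PRC1 genes 8, germline genes 1 and developmental genes 6, while all genes called rose from 3081 to 5769. Summed over genes, replicates spread beyond counting error: chi-square over its degrees of freedom ran from 5.52 to 10.7, where counting error alone gives about 1. Expected counts came from library totals without TMM factors, so scaling differences between replicates are part of these values.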
